A study of Mus musculus with 4 samples.

Results

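The genes described here drive and mark cell division: 42 genes of the cell cycle and of DNA replication, chosen by a list of symbols and all found among the 24061 gene rows of the count table. By role, 18 act in G2 and mitosis, 15 in DNA replication and S phase, and 9 control entry into the cycle from G1. They were measured by RNA sequencing in regulatory T cells with an effector phenotype (CD4+FoxP3+CD62L-), sorted out of mouse Peyer's patches (lymphoid follicles of the gut wall), at about 40000 cells per RNA sample. All mice were 13 weeks old, on a C57BL/6 background (N5 backcross), and carried the FoxP3-YFP-cre allele, which expresses Cre recombinase in regulatory T cells, so that the controls carry the Cre too. Of the 4 libraries, 2 are labelled Maf+/+ (labelled wt 1 and wt 2) and 2 are labelled Mafflox/flox (labelled flox 1 and flox 2). The labels do not say whether the libraries of 1 label came from separate or pooled animals, so a p-value here weighs a difference against the spread of these libraries alone, which may be technical.

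Maf, the targeted gene, had 3071 counts in labelled wt 1, 40 in labelled wt 2, 2975 in labelled flox 1 and 15 in labelled flox 2. The labels of wt 2 and flox 1 are thus at odds with the gene they describe, and libraries are called by their labels throughout. The cell cycle genes were compared in 2 ways, by the genotype label and by the number in the sample title, which sets both libraries numbered 1 against both numbered 2. The number is no genotype in the labels, although high Maf and number 1 coincide and the values that the authors deposited as normalized were computed with the number as the group. Gene totals were 19368745 to 24687897 counts. Levels are given as CPM, which are counts relative to the scaled library size, in the order labelled wt 1, wt 2, flox 1 and flox 2. Markers of the sorted cells were present in every library, with Foxp3 at 91.0 to 104 CPM, and 9 listed regulatory T cell markers summed to 6390 CPM at the lowest, in labelled wt 2, and 8787 at the highest, in labelled wt 1. Of these 9, Ctla4, an inhibitory receptor, had 3342, 1627, 3344 and 2080.2 CPM and was called higher in number 1 by edgeR's quasi-likelihood test (adjusted p = 0.027), its likelihood ratio test, DESeq2 and limma-voom, and Icos was called higher by DESeq2 and the likelihood ratio test. Without overlap, 2 of the 9 lay above and 3 below in number 1, against 22.5% and 22.7% of all tested genes. The 3 lower ones were Cd3g, Foxp3 and Il2ra, the last with 454, 503, 401 and 510 CPM. The 8 heat shock genes listed summed to 9910 CPM in labelled flox 2 against 3153 to 3774 in the other libraries.

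A dividing cell passes from G1 through S phase, in which the genome is copied, to G2 and mitosis. D and E cyclins with their kinases inactivate the retinoblastoma protein and release E2F factors, which switch on replication genes, while CDK inhibitors such as p21, p27 and p18 hold these kinases back. Mitotic genes follow later in the cycle and are kept off in resting cells by a repressor complex that binds elements in their promoters. Effector regulatory T cells of the gut divide more than resting ones. In bulk RNA, a lower share of dividing cells and less RNA of these genes per cell cannot be told apart.

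Of all 42 genes, 1 passed the edgeR quasi-likelihood test between numbers: Cdkn1a, which encodes the CDK inhibitor p21, was higher in the libraries numbered 1. Across the table, 236 of 13022 tested genes (1.81%) passed, 184 of them (1.41%) higher in number 1 and 52 (0.399%) lower, so that 1 of 42 lies near the background. Another CDK inhibitor gene, Cdkn2c, had the next smallest p of the list without passing. None of the 15 S phase and none of the 18 mitotic genes passed, with 4 and 1 at an unadjusted p under 0.05 (9 of all 42 members, against 13.6% of all genes), and DESeq2, the edgeR likelihood ratio test and limma-voom called none of these 33 either. By genotype label no member passed by any of these 4 tools and 0 had an unadjusted p under 0.05, beside 1 called gene among 13022 (0.00768%) and 1.98% of genes at an unadjusted p under 0.05 (0.676% lower in labelled flox). By sign alone, 15 of 42 members had a log2 fold change above 0 between numbers (48.7% of all genes) and 16 of 42 between labels (50.3%). Both libraries of 1 number stood on the same side of both of the other for 22 of 42 members (45.2% of all genes).

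**Figure D1:**
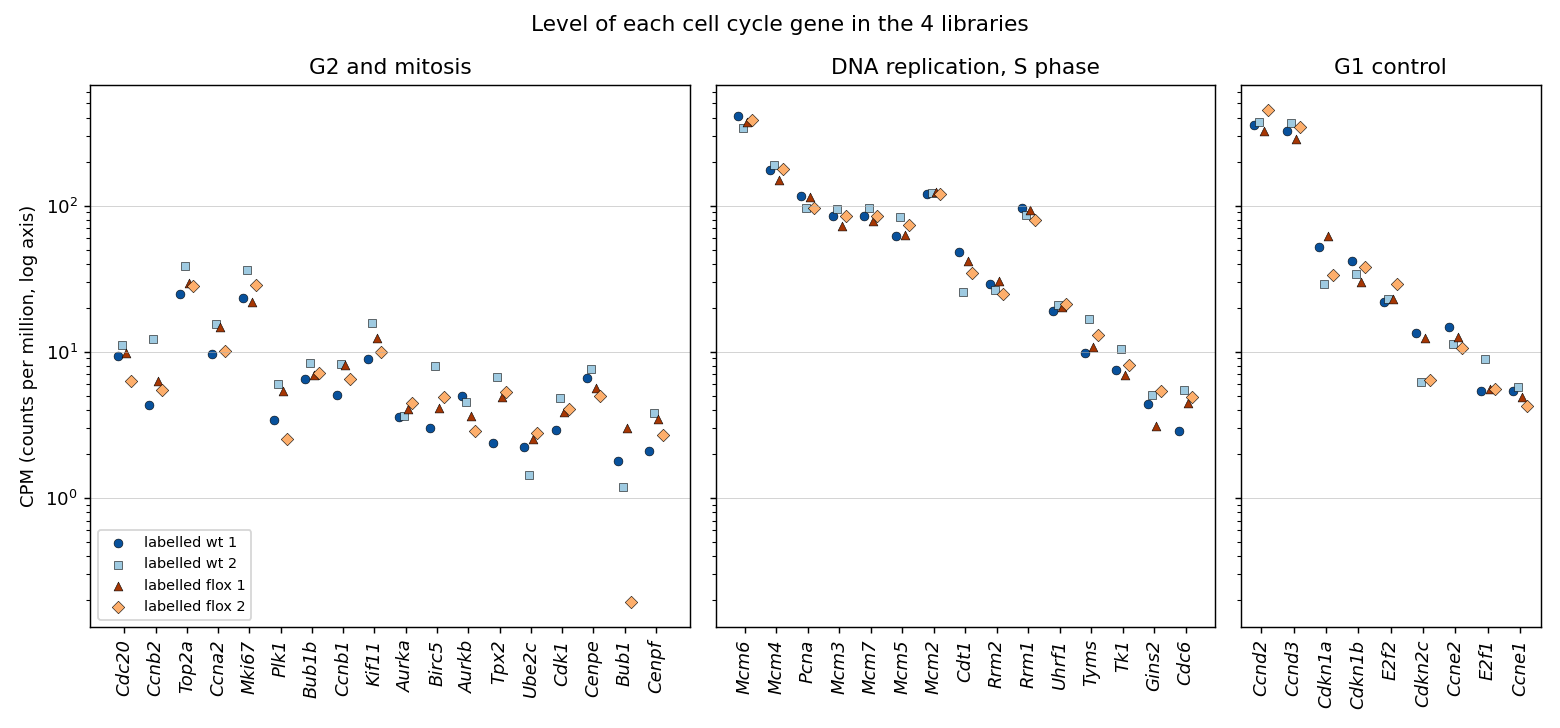
Level of each of the 42 genes (horizontal axis, by role, ordered by mean level per exon length) as CPM on a log axis in the 4 libraries, 1 point per library. Cdkn1a and Cdkn2c have both libraries numbered 1 above both numbered 2, while for most mitotic genes labelled wt 2 is the highest point.

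Cdkn1a (ENSMUSG00000023067.14, chromosome 17, 29090976 to 29100727, plus strand, mm10) had 52.0, 29.2, 61.6 and 33.2 CPM, from 1069, 591, 1503 and 687 counts. Both libraries numbered 1 stood well above both numbered 2, and the groups did not overlap. The mean was 56.8 ± 6.78 CPM in number 1 and 31.2 ± 2.83 in number 2 (SD, n = 2), and the log2 fold change of number 1 over number 2 was 0.86 (SE 0.14, 95% interval 0.53 to 1.19, adjusted p = 0.0389 by edgeR's quasi-likelihood test after Benjamini-Hochberg correction). The ratio was alike within each label, 1.78 within wt (1.61 to 1.97) and 1.85 within flox (1.69 to 2.03), where intervals are exact binomial ones at 95% that cover counting error only. The call was lost without labelled wt 1 (adjusted p = 0.124), without labelled flox 1 (adjusted p = 0.188) and by limma-voom (adjusted p = 0.0516), and over all alternatives the edgeR, DESeq2 and limma adjusted p ranged from 8.41e-05 to 0.188. By label the same gene had a log2 fold change of 0.22 (95% interval -0.88 to 1.33). An antisense gene, AC167363.2, shares 7.7% of its exon length, and the use of strand in counting is not given in the sources used here.

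Cdkn2c, which encodes p18, an inhibitor of the kinases CDK4 and CDK6, lies on chromosome 4 (109660876 to 109667189, minus strand). It had 13.4, 6.18, 12.5 and 6.43 CPM, from 275, 125, 305 and 133 counts. The groups by number did not overlap here either, with 12.9 ± 0.620 CPM in number 1 and 6.31 ± 0.178 in number 2 (SD, n = 2). The ratio was 2.16 within wt (1.74 to 2.69) and 1.94 within flox (1.58 to 2.40). The log2 fold change was 1.04 (SE 0.22, 95% interval 0.52 to 1.55), and it did not pass the edgeR quasi-likelihood test (adjusted p = 0.0874). DESeq2 called it (adjusted p = 0.0125), as did the likelihood ratio test (adjusted p = 0.0149) and edgeR without a filter on low counts (adjusted p = 0.0292), within a range of 0.0125 to 0.46 over all alternatives. Cdkn1b, which encodes the third inhibitor of the list, p27, had 41.6, 34.1, 29.8 and 38.1 CPM and differed in opposite directions within the labels. Its log2 fold change between numbers was -0.02, with a 95% interval of -0.45 to 0.42.

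The promoters of both inhibitor genes are shown because their levels separated by number. They come from RefSeq (GRCm38.p6), in which 35 of the 42 genes have an entry, and run from 250 bases before to 50 bases after a start site. The windows are chr17:29090729-29091028 and chr17:29093519-29093818 for the start sites of Cdkn1a (plus strand) and chr4:109665323-109665622 and chr4:109666707-109667006 for those of Cdkn2c (minus strand). Capitals mark matches, on either strand, to 4 motifs that are spelled out further on.
Cdkn1a, upstream start site: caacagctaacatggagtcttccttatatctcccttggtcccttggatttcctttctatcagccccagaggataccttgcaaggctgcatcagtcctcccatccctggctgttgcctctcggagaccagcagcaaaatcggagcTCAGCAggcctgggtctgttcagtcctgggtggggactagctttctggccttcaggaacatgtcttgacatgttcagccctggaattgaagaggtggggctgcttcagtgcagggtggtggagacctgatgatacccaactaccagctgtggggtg
Cdkn1a, downstream start site: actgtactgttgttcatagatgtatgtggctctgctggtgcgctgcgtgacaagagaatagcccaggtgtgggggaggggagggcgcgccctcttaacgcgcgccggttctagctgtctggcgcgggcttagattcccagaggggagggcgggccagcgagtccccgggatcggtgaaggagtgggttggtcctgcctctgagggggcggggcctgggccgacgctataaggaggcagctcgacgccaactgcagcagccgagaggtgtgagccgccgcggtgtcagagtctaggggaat
Cdkn2c, downstream start site: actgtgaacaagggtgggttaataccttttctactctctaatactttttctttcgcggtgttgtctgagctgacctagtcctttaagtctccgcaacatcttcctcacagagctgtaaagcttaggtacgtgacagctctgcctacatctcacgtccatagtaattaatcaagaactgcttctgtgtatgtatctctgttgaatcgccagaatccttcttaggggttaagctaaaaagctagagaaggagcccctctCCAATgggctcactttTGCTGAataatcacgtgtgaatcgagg
Cdkn2c, upstream start site: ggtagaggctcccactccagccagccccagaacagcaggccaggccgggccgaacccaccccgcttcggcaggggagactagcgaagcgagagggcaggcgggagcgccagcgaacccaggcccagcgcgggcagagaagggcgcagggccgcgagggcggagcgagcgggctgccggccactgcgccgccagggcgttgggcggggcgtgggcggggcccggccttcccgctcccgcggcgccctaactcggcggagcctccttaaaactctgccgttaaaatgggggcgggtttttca
Of these 4 windows, the first holds 1 match to the half-site of the Maf recognition element, the third holds 1 such match and 1 CCAAT, and the other two hold none. The count table gives 1 value per gene and does not tell the start sites apart.

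The cyclins and E2F factors of the list showed smaller differences. Ccnd2 and Ccnd3 encode D cyclins, the partners of CDK4 and CDK6. Ccnd2 had 353, 375, 324 and 453 CPM, and Ccnd3 had 322.5, 365, 284 and 346. Both were lower in each library numbered 1 than in each numbered 2, with log2 fold changes of -0.29 (95% interval -0.56 to -0.02) and -0.23 (-0.45 to -0.0044), and neither passed edgeR's test (adjusted p = 0.331 for Ccnd2). Within wt the ratio was 0.942 for Ccnd2 and within flox 0.715, with labelled flox 2 the highest library. Ccne1 and Ccne2 encode E cyclins, which act at the start of S phase. Ccne2 had 14.8, 11.3, 12.6 and 10.6 CPM, and Ccne1 had 5.40, 5.74, 4.87 and 4.26. Both libraries numbered 1 were above both numbered 2 for Ccne2 (17.4% of its exon length overlaps Ints8 on the opposite strand), and not for Ccne1. E2f1 had 5.40, 8.90, 5.57 and 5.56 CPM, where labelled wt 2 alone stood out, and E2f2 had 21.7, 23.1, 23.1 and 29.0, where labelled flox 2 did. Of the 9 G1 control genes, 3 were above and 2 below in number 1 without overlap, against 22.5% and 22.7% of all tested genes.

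Other regulators of cycle entry and exit were taken from a list of 35 genes, of which 34 were tested. None passed the edgeR quasi-likelihood test between numbers, and limma-voom called 0. By the former, 8 were higher and 3 lower in number 1 at an unadjusted p under 0.05 (against 8.12% and 5.45% of all genes). DESeq2 called 4 (Cdk6, Rb1, Myc and Foxo1) and the likelihood ratio test 2 (Cdk6 and Myc), all higher. Rb1, the retinoblastoma gene, had 154, 95.1, 132 and 51.9 CPM. Myc, a driver of growth and division, had 475, 287, 388 and 297 CPM, and Cdk6, a kinase that D cyclins activate, had 25.8, 11.1, 22.3 and 14.9. Foxo1, a transcription factor of quiescence, had 691, 558, 688 and 543, and Tob1, an antiproliferative factor, had 104, 81.6, 115 and 89.4. For all 4 both libraries numbered 1 lay above both numbered 2. They were named for the smallest unadjusted p of the list between numbers, so their separation follows in part from that choice. Without overlap, 16 of the 34 lay above and 6 below in number 1, against 22.5% and 22.7% of all genes. Tfdp1, Ccng1 and Wee1 were the 3 lower at an unadjusted p under 0.05. The 4 named genes include ones known to promote division and ones known to restrain it. Adjusted p values by edgeR were 0.078 for Myc, 0.109 for Cdk6, 0.103 for Foxo1 and 0.179 for Tob1. Because p21 is a classic target of p53, 16 genes of the p53 response were listed too. None of them passed the quasi-likelihood test, and 4 were higher in number 1 at an unadjusted p under 0.05 (8.12% of all genes). For this list limma-voom called 0, and DESeq2 and the likelihood ratio test called 3 each. Trp53inp1 had 754, 429, 702 and 533 CPM, Gadd45b had 777, 398, 809.9 and 559.9, Sesn1 had 164, 109, 140.3 and 114, and Fas had 58.4, 41.6, 61.4 and 50.7. These 4 had the smallest unadjusted p of the 16 by the quasi-likelihood test. The median log2 fold change of the 16 between numbers was 0.18, and Trp53, Bax and Aen were at -0.06, -0.04 and -0.14. By label none of these lists had a called gene by any of the 4 tools, with 0 and 1 genes at an unadjusted p under 0.05 (1.98% of all genes).

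Some markers of other cells also lay higher in the libraries numbered 1. Of 9 tested markers of germinal centre B cells, which divide fast in Peyer's patches, 7 lay higher in both libraries numbered 1 (22.5% of all tested genes did), 3 were higher at an unadjusted p under 0.05 (8.12% of all genes), and 0 were called by any of the 4 tools. Their summed level was 165, 109, 162 and 149 CPM, most of it from Neil1 and S1pr2. The other 8 of the 10 listed genes were at most 5.20 CPM, and Mybl1 had 0 counts in labelled wt 2 and labelled flox 2. The 10 general B cell markers summed to 73.5, 81.9, 124 and 62.7 CPM, highest in labelled flox 1; of 9 tested, 4 lay higher in both libraries numbered 1 (22.5% of all genes), 0 were called by the quasi-likelihood test or limma-voom, and DESeq2 and the likelihood ratio test called 1, Cr2. Summed epithelial markers were 201, 483, 475 and 350.1 CPM, myeloid ones 18.96, 67.2, 106 and 63.1, and those of CD8 T and natural killer cells 56.9, 88.0, 64.2 and 102. These 3 lists showed no such excess in number 1. Without overlap, 0 of 12 tested epithelial markers lay above and 1 below. The counts were 1 and 0 of 11 for myeloid markers, and 0 and 2 of 7 for CD8 T and natural killer cells. Klrb1c, of the last list, was called lower in number 1 by all tools but limma-voom, with 22.6, 44.9, 21.3 and 68.5 CPM. Of the myeloid markers, Csf1r and Cd14 were at 0 in labelled wt 1. The part of these cells in the levels of Cdkn1a and Cdkn2c was not tested.

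The S phase genes were the most precisely measured group, with a median SE of 0.12 for the log2 fold change between numbers, against 0.18 in G1 control genes and 0.35 in mitotic genes. The helicase that unwinds DNA at replication forks is built from MCM2 to MCM7, and its genes differed little in level between libraries. Mcm2 had 120.4, 121.5, 122.9 and 119.8 CPM, a log2 fold change between numbers of 0.01 with a 95% interval of -0.18 to 0.21. Mcm6 had 408, 341, 373 and 386, Mcm4 had 175, 189, 149 and 177, and Mcm3 had 84.6, 94.1, 72.0 and 84.2. Mcm7 had 84.8, 95.8, 78.3 and 84.7. Mcm5, with 62.0, 83.0, 63.3 and 73.6 CPM, was lower in both libraries numbered 1 (log2 fold change -0.32, SE 0.10) and did not pass edgeR's test (adjusted p = 0.243). For the 6 helicase genes the log2 fold change between numbers lay between -0.32 and 0.10, and no interval reached a change of 2-fold.

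Pcna, the sliding clamp of DNA polymerase, had 117, 95.6, 114 and 96.9 CPM. Its values were tight within each number, 115 ± 1.94 in number 1 and 96.2 ± 0.885 in number 2 (SD, n = 2), and the log2 fold change of 0.26 (SE 0.08) did not pass edgeR's test (adjusted p = 0.234). Rrm1 and Rrm2, the subunits of ribonucleotide reductase, went the same way without passing, with 95.9, 86.1, 92.6 and 80.0 CPM and 28.9, 26.4, 30.6 and 24.9 CPM. Cdt1, which loads the helicase onto origins, had 48.3, 25.4, 41.6 and 34.4 CPM (log2 fold change 0.59, SE 0.18, edgeR adjusted p = 0.212). The ratio was 1.90 within wt (1.71 to 2.12) and 1.21 within flox (1.10 to 1.33). Without labelled flox 2 Cdt1 passed (edgeR adjusted p = 0.0393, within a range of 0.0393 to 0.703 over all alternatives).

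Other S phase genes lay on the opposite side. Tyms, thymidylate synthase, had 9.82, 16.7, 10.7 and 13.0 CPM (log2 fold change -0.53, 95% interval -1.04 to -0.02), and Tk1, thymidine kinase, had 7.44, 10.5, 6.96 and 8.08. Cdc6, the partner of Cdt1 in loading, had 2.87, 5.44, 4.47 and 4.93, and Uhrf1, which guides maintenance of DNA methylation, had 19.1, 20.9, 20.1 and 21.0. Gins2, a subunit of the replicative helicase complex, had 4.38, 5.09, 3.11 and 5.37, but 67.3% of its exon length overlaps Gse1 on the opposite strand, so its value is uncertain. Each of these 5 genes was lower in both libraries numbered 1 and none passed. In all, 4 of the 15 S phase genes were above and 7 below without overlap, against 22.5% and 22.7% of all tested genes. The difference went the same way within both labels for 13 of 15, against 59.1% of all tested genes. The median log2 fold change of the 15 was -0.15 between numbers and -0.08 between labels, with -0.01 and 0.00 over all genes. Without labelled flox 1 the first was -0.07, and without labelled flox 2 the second was -0.0042. Summed, the S phase genes had 1268, 1217, 1183 and 1213 CPM.

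**Figure D2:**
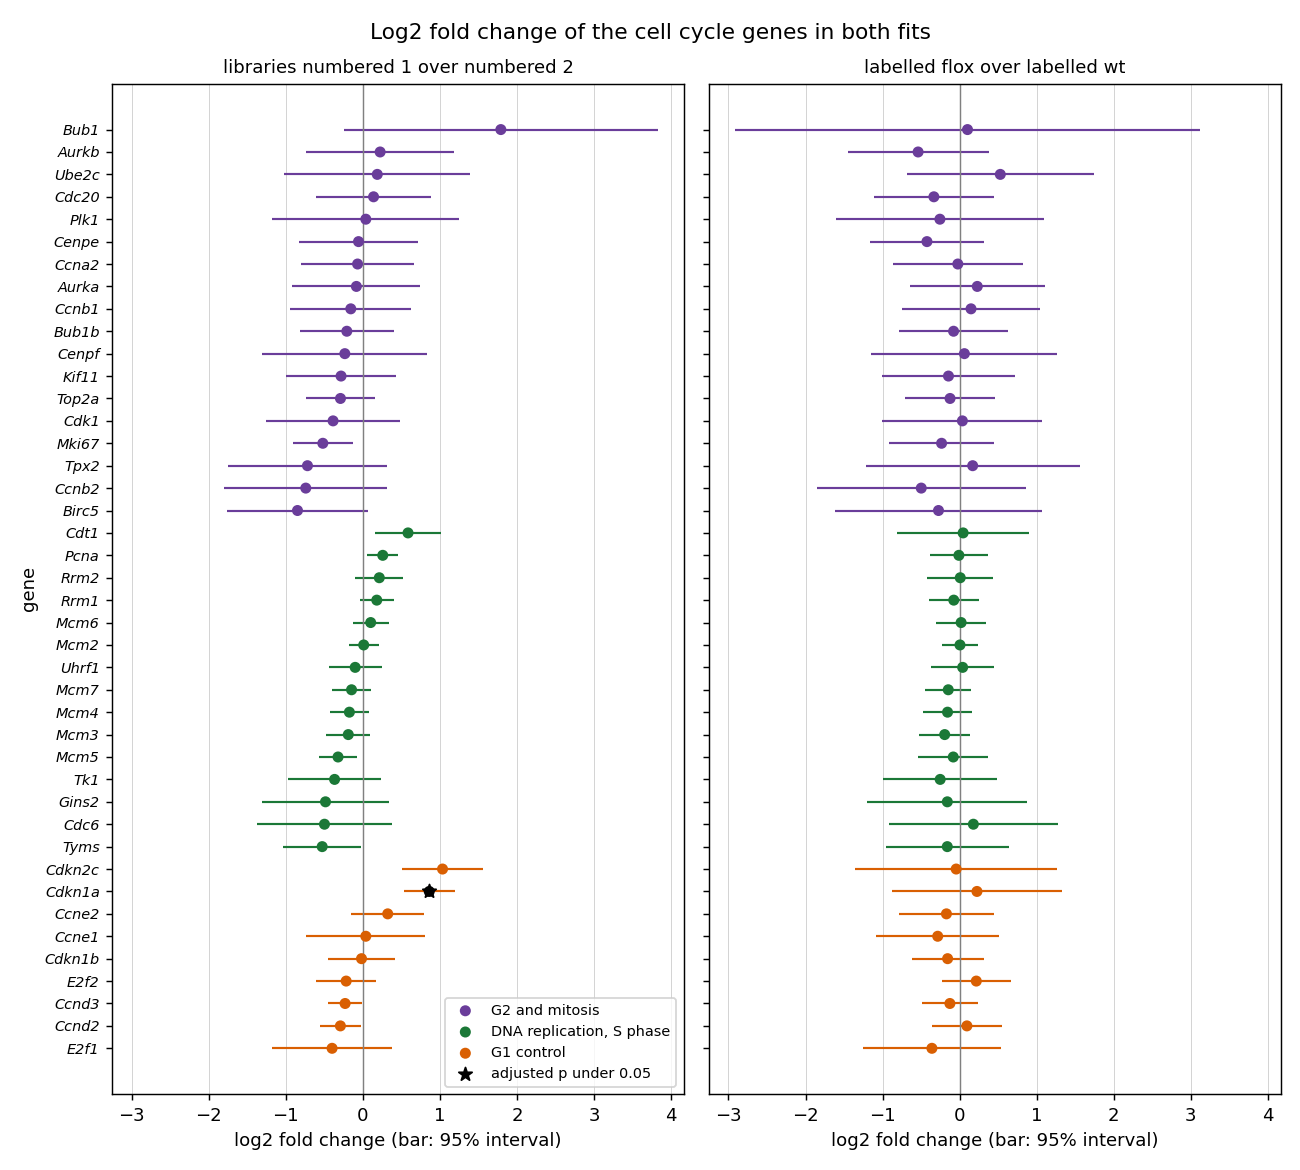
Log2 fold change of each gene between numbers (left) and between labels (right) with its 95% interval from edgeR's quasi-likelihood fit, coloured by role. The star marks Cdkn1a, whose interval between numbers is 0.53 to 1.19, and the other 41 genes did not pass.

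Mitotic genes varied more from library to library, at lower counts (4 to 774, against 59 to 9109 in S phase genes). Their sum was lowest in labelled wt 1 and highest in labelled wt 2. Mki67, the proliferation antigen Ki-67, had 23.1, 36.1, 21.9 and 28.4 CPM. Both libraries numbered 1 were below both numbered 2, the ratio being 0.641 within wt (0.570 to 0.721) and 0.771 within flox (0.684 to 0.868), with a log2 fold change of -0.52 (SE 0.16, 95% interval -0.91 to -0.13, edgeR adjusted p = 0.224). Top2a, the topoisomerase that untangles sister chromatids, had 24.9, 38.3, 29.6 and 28.3. Its excess was in labelled wt 2 only, the ratio of wt 1 to wt 2 being 0.651 (0.581 to 0.728) and that of flox 1 to flox 2 1.04 (0.935 to 1.17). Labelled wt 2 was the highest library for 14 of the 18 mitotic genes, against 27.2% of all tested genes, for 7 of 15 S phase genes and for 3 of 9 G1 control genes, 24 of 42 in all. Labelled wt 1 was highest for 8 of the 42 (24.3% of all genes), labelled flox 2 for 6 (26.1%) and labelled flox 1 for 4 (22.3%). The summed level of the 18 was 125, 193, 150.3 and 137 CPM. The summed epithelial markers (201, 483, 475 and 350.1 CPM) had the same order of libraries as the summed mitotic genes, labelled wt 1 lowest and labelled wt 2 highest, and the summed myeloid markers (18.96, 67.2, 106 and 63.1 CPM) were lowest in labelled wt 1 as well. Labelled wt 2 had the lowest sum of germinal centre markers (109 CPM) and the next to highest sum of B cell markers (81.9 CPM). Most of that germinal centre sum came from Neil1 (66.5 CPM) and S1pr2 (31.6 CPM), so it says little of the other markers listed. The part of these cells in the mitotic levels was not tested.

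The cyclins and the kinase that trigger mitosis show the same pattern. Ccnb2 had 4.33, 12.3, 6.27 and 5.47 CPM, Ccnb1 had 5.06, 8.21, 8.15 and 6.53, and Ccna2 had 9.68, 15.5, 14.7 and 10.1. Cdk1, the kinase they activate, had 2.92, 4.85, 3.89 and 4.06. Labelled wt 1 was lowest and labelled wt 2 highest for Ccnb1, Ccnb2, Ccna2 and Cdk1, and the flox libraries lay between them. On the opposite strand, Exosc9 overlaps 12.5% of the exon length of Ccna2. Ccnb1 has processed pseudogenes with up to 99.2% identity, so the division of its reads is uncertain. Plk1, a kinase of mitotic entry, had 3.40, 6.03, 5.37 and 2.51 CPM, and its ratios ran in opposite directions, 0.564 within wt (0.414 to 0.763) and 2.13 within flox (1.54 to 3.002).

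Genes of the spindle and of chromosome attachment followed. Tpx2, a spindle assembly factor, had 2.38, 6.72, 4.92 and 5.32 CPM, and Birc5, the survivin subunit of the chromosomal passenger complex, had 3.01, 7.96, 4.14 and 4.93 (log2 fold change -0.85, SE 0.38, edgeR adjusted p = 0.408). Kif11, the motor that separates spindle poles, had 8.85, 15.8, 12.3 and 9.96. For these 3 genes too, labelled wt 1 was lowest and labelled wt 2 highest. The kinetochore proteins Cenpe and Cenpf had 6.56, 7.66, 5.61 and 4.98 CPM and 2.09, 3.81, 3.44 and 2.71 CPM. The mitotic kinases Aurka and Aurkb had 3.60, 3.66, 4.06 and 4.45 CPM and 4.96, 4.50, 3.65 and 2.85 CPM. Aurka was higher and Aurkb lower in both libraries labelled flox than in both labelled wt, and neither passed (edgeR adjusted p = 1.00 for Aurkb).

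Among genes of the spindle checkpoint and of mitotic exit, Bub1b had 6.52, 8.41, 6.96 and 7.16 CPM. Cdc20, the activator of the anaphase-promoting complex, had 9.34, 11.03, 9.79 and 6.34, and Ube2c, its ubiquitin-conjugating enzyme, had 2.24, 1.43, 2.54 and 2.76, with 22.8% of its exon length shared with Tnnc2 on the opposite strand. Bub1, a checkpoint kinase, was the only 1 of the 18 mitotic genes with both libraries numbered 1 above both numbered 2. Cdca2, a further mitotic gene given below, had the same order of libraries. The counts of Bub1 were 37, 24, 73 and 4 (1.80, 1.19, 2.99 and 0.193 CPM). Labelled flox 1 was 15.5 times as high as labelled flox 2 (5.79 to 58.2), and labelled wt 1 was 1.52 times as high as wt 2 (0.883 to 2.65). The log2 fold change between numbers was 1.79 (95% interval -0.24 to 3.83, edgeR adjusted p = 0.434). It was 1.01 without labelled flox 2 and 3.59 without labelled wt 2.

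Within wt, 12 of 18 mitotic genes were lower in number 1 beyond counting error and 0 were higher, whereas within flox 1 was lower and 5 were higher. Over all tested genes these shares were 28.6% and 28.7% within wt and 27.7% and 28.9% within flox. For 8 of 18 the direction was the same within both labels, against 59.1% of all tested genes. Without overlap, 5 were below and 1 was above in number 1, against 22.7% and 22.5% of all genes. The median log2 fold change of the 18 was -0.18 between numbers and -0.10 between labels, with a median SE of 0.35 and 0.36 for a single gene. Without labelled wt 2 these medians were -0.02 and 0.25, without labelled wt 1 -0.04 and -0.40, and without labelled flox 2 -0.40 and 0.0029. Without labelled flox 1 the median between numbers was -0.41. A difference of 2-fold in either direction lay within the 95% interval of some of these genes, such as Plk1 (-1.17 to 1.25 between numbers).

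**Figure D3:**
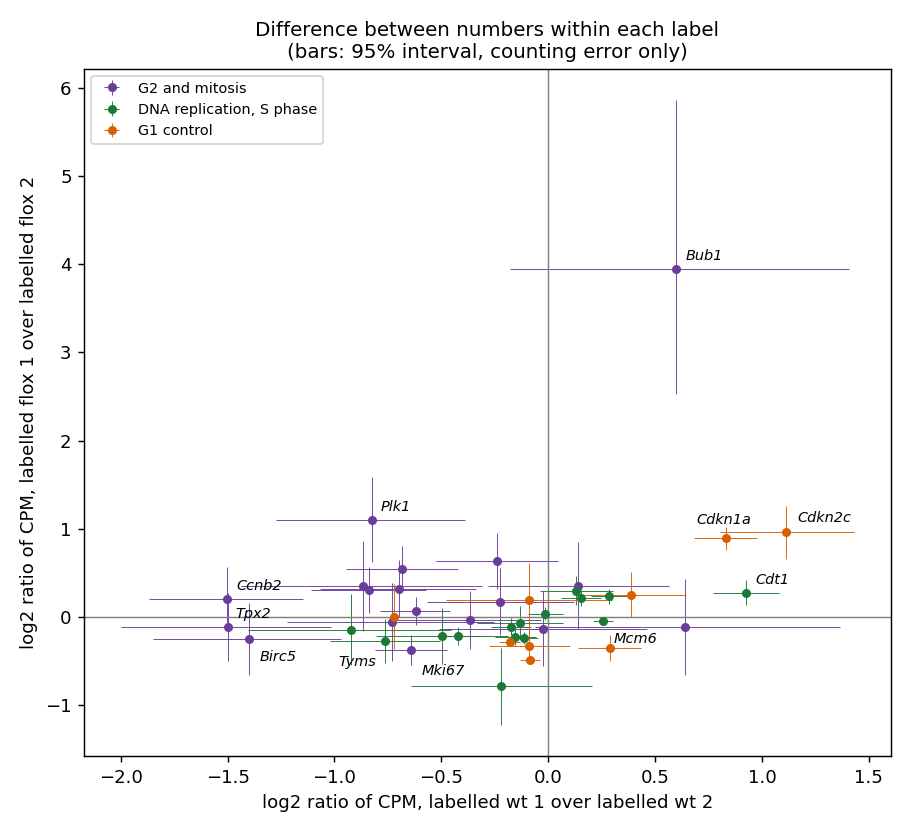
Log2 ratio of CPM of wt 1 over wt 2 (horizontal axis) and of flox 1 over flox 2 (vertical axis) for the 42 genes, with 95% intervals for counting error. Cdkn1a and Cdkn2c are positive on both axes, and most mitotic genes lie left of 0 with no common direction on the vertical axis.

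Further genes of mitosis and of replication were taken from wider lists. Of 69 tested further mitotic genes, 0 passed between numbers by the edgeR quasi-likelihood test, DESeq2, the likelihood ratio test or limma-voom. At an unadjusted p under 0.05 were 3, all higher in number 1, against 13.6% of all genes (8.12% higher). Without overlap, 8 of the list were above and 16 below in number 1, against 22.5% and 22.7% of all genes. Ccnf, an F-box cyclin, had 6.61, 2.62, 5.74 and 2.90 CPM, and Racgap1, which acts in cytokinesis, had 57.7, 49.3, 60.3 and 36.7. Cdca2 had 4.33, 2.82, 6.88 and 1.74, and Aspm, a spindle pole protein, had 2.43, 3.56, 1.27 and 3.87. The median over the 69 was -0.09. Of 55 further replication genes 0 passed by the quasi-likelihood test or limma-voom. At an unadjusted p under 0.05 were 3 (13.6% of all genes), 2 of them higher in number 1. Without overlap, 7 were above and 14 below in number 1. DESeq2 and the likelihood ratio test called 1, Lig1, the DNA ligase of the replication fork, with 66.5, 45.5, 71.0 and 50.4 CPM (edgeR adjusted p = 0.0891). Dna2, a nuclease, had 1.41, 2.92, 1.31 and 4.88 CPM, Cdc45, a helicase cofactor, had 4.62, 7.76, 4.26 and 6.38, and Brca1 had 4.18, 2.47, 6.55 and 2.999. By label 0 genes of either list passed by any of the 4 tools, with 1 and 0 at an unadjusted p under 0.05 (1.98% of all genes).

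By genotype label no difference exceeded the spread between libraries by the test. In the mitotic group the smallest unadjusted p belonged to Aurkb (log2 fold change -0.54, 95% interval -1.45 to 0.38), Cenpe (-0.42, -1.16 to 0.31) and Ube2c (0.53, -0.68 to 1.74). In the S phase group it belonged to Mcm3 (-0.19, -0.53 to 0.14), Mcm4 (-0.16, -0.47 to 0.16) and Mcm7 (-0.15, -0.45 to 0.15). Among G1 control genes it belonged to E2f2 (0.22, -0.23 to 0.66), E2f1 (-0.36, -1.26 to 0.53) and Ccne1 (-0.29, -1.08 to 0.51). All 9 had an edgeR adjusted p = 1.00. Of the 42 genes, 8 did not overlap between labels (27% of all genes), 3 above and 5 below in labelled flox (13.2% and 13.8%). E2f1 changed sign without labelled wt 2 (0.05). Every direction by label is one between labels that Maf itself does not follow.

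Levels of different genes were compared per exon length, as RPKM (CPM per kilobase of the exons that GENCODE M21 annotates, mm10). Replication genes were the most abundant group by the median, but reached down to Cdc6 at rank 38 with 0.847 RPKM. Mcm6 was first with 80.8 ± 5.97 RPKM (SD over the 4 libraries of both labels), followed by Mcm4 with 48.0 ± 4.62, Pcna with 44.1 ± 4.59, Ccnd2 with 40.0 ± 5.88 and Ccnd3 with 37.6 ± 3.97. Pcna has a processed pseudogene, Pcna-ps2, with 99.2% identity over 781 bases, and Uhrf1, Mcm7, Cdc6, Ccnd3, Mki67 and Rrm2 have pseudogene copies too, so the division of their reads is uncertain. Of the first 13 genes in this order 10 were S phase genes and the remaining ones were Ccnd2, Ccnd3 and Cdkn1a. The first mitotic gene was Cdc20 at rank 16, with 4.88 ± 1.07 RPKM, and Cenpf was last with 0.195 ± 0.050. The median of the mean levels was 11.9 RPKM in S phase genes, 4.96 in G1 control genes and 1.57 in mitotic genes. Of 41 neighbouring pairs in this order, 4 had library values that did not overlap: Mcm6 above Mcm4, Ccnd3 above Mcm3, Rrm2 above Rrm1 and Cdkn1b above E2f2. The order depends on the length, which joins the exons of all annotated transcripts of a gene, used here or not. Rrm1 had more CPM than Rrm2 in every library and ranked below it through an exon length of 11012 bases against 2771.

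Promoter letters did not enter the counts. The genes were grouped by known role, however, and E2F factors and the promoter elements of mitotic genes are already tied to these roles. The shares below are therefore no independent test. A match was searched on both strands for an E2F site (TTTCCCGC, TTTGGCGC, TTTCGCGC or TTTGCCGC), for the cell cycle homology region or CHR, the element at which mitotic genes are repressed in resting cells (TTTGAA or TTCGAA), for the NF-Y box (CCAAT) and for the Maf half-site (TGCTGA). None of these motifs contains another. The promoters of Cdt1 (chr8:122567765-122568064, plus strand) and of Mki67 (chr7:135716330-135716629, minus strand) show 1 S phase and 1 mitotic gene, those with the smallest p of their groups between numbers, with matches to any of the motifs in capitals.
Cdt1: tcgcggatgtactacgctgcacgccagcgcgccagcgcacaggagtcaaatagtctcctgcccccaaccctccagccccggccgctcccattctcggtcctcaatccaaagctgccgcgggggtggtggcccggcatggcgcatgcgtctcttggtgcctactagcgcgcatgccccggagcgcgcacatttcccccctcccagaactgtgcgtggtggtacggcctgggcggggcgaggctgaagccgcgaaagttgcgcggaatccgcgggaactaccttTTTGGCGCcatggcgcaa
Mki67: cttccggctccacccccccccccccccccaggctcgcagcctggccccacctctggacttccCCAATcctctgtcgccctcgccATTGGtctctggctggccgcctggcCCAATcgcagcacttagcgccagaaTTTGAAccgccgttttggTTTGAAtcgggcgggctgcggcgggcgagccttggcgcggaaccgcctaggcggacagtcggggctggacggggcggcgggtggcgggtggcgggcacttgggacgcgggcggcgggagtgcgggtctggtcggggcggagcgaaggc
The Cdt1 window holds 1 E2F match and no other, and the Mki67 window holds 2 CHR and 3 CCAAT matches. An E2F match was present in 7 of 15 S phase promoters (46.7%), 1 of 15 mitotic ones and 744 of all 32851 (2.26%). A CHR match was present in 12 of 15 mitotic promoters (80.0%), 2 of 15 S phase ones (13.3%) and 19.2% of all. CCAAT was present in 14 of 15 mitotic promoters (93.3%), 11 of 15 S phase ones (73.3%) and 37.4% of all. The Maf half-site was present in 3 of 15, 1 of 15 and 4 of 11 promoters of the mitotic, S phase and G1 control genes, against 19.5% of all. Matches are a description of these letters and not evidence of binding.

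**Figure D4:**
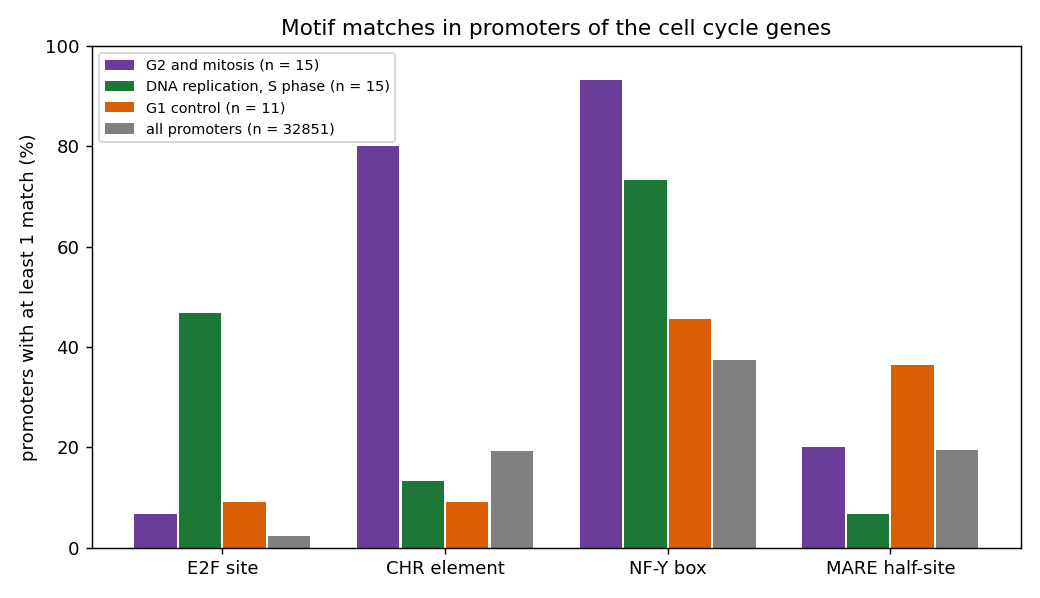
Share of promoters (percent, 250 bases before to 50 after the start site) with at least 1 match to each of 4 motifs, for the 3 groups of genes and for all 32851 promoters. CHR matches are most frequent in mitotic promoters (80.0%) and E2F matches in S phase promoters (46.7%).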

How the data were processed

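RNA of 4 libraries was sequenced. Trizol, RNeasy Micro columns and a Clontech kit for very little mRNA were used, per the labels' protocols. The submitters' processing notes name TopHat2 2.1.1, HTSeq 0.6.1, edgeR 3.14 and build mm10; settings, annotation and strand are not stated in those notes. Raw counts per gene symbol were deposited by the authors, with 24061 gene rows. Counter summary rows, 66.6% to 67.2% of the column totals, were left out. The authors also deposited a normalized signal for 10618 rows (40 of the 42 genes). Pseudo-counts of classic edgeR with the title number as group came within a relative error of 1e-06 of 100% of these 42472 values, against 3.25% with the genotype label. These values entered no count test.

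The whole table was fitted in R 4.3.3 with edgeR 4.0.16 (filterByExpr, 13022 genes kept, all 42 members among them; TMM; robust glmQLFit and glmQLFTest; Benjamini-Hochberg adjustment over all genes; threshold 0.05), by label and by number. The biological coefficient of variation was 0.273 and 0.194. Standard errors were derived as the absolute log2 fold change over the square root of the F statistic. The fit by number follows the title and was proposed with the Maf level of the libraries known. An exact permutation test of 2 against 2 libraries cannot pass 0.05 and was not run. Other tools were DESeq2 1.42.0 and limma 3.58.1 (voom). The scripts were tested on simulated data. Members and lists were chosen with earlier results of these data known. Members with the smallest p per role and fit are given with full statistics, and 4 genes of each further list by smallest p between numbers. Overlapping exons and copies with at least 95% identity over 200 bases were looked up in GENCODE M21.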

Additional observations from a re-analysis of the deposited data

How the results depend on the processing

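Of the 42 members, the number called between libraries numbered 1 and 2 was 1 in edgeR's quasi-likelihood test, 2 with no filter on low counts, by DESeq2 and by the likelihood ratio test, 0 by limma-voom, and 0 to 2 when 1 library was left out (0 without labelled wt 1 or labelled flox 1, 2 without labelled flox 2). Called genes of the whole table went from 236 to 589 with no filter, 640 by DESeq2 and 608 by the likelihood ratio test, and from 46 (without labelled wt 1) to 525 (without labelled wt 2) with 1 library left out; without labelled flox 1 they were 116 and without labelled flox 2 504. By label, 1 gene became 2 with no filter, 12 by DESeq2, 12 by the likelihood ratio test, 0 by limma-voom and 0 to 0 with 1 library left out, and 0 members were called in each of these.

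With 1 library left out, the median log2 fold change between numbers lay from -0.22 to -0.072 in S phase genes and from -0.17 to 0.12 in G1 control genes, and that between labels from -0.40 to 0.25 in mitotic genes, -0.21 to -0.0042 in S phase genes and -0.29 to 0.035 in G1 control genes, so only the S phase sign held in both. E2f1 by label lay from -0.68 to 0.050 (with all libraries -0.36). The cause was not tested. Where 1 library is left in an arm, it is assumed to vary like the others.

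The libraries share title numbers, but 2 pairs cannot show that numbers pair them: deviations of labelled wt 1 and labelled flox 1 from their label means correlated across 13022 genes with r = 0.326. With the title number as a replicate block, the label fit called 0 members and 1 gene. With the genotype label as a term, the number fit called 1 member, Cdkn1a, and 212 genes. For Bub1, with 4 counts in labelled flox 2, depth limits the fold.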
